A study of Mus musculus with 150 samples.

Results

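Asgr1, Pon1, Cldn8, Cckar and Capn13 are 5 genes whose mean over the weeks was lower in wild-type mouse lungs after inhaled styrene than after air. Mice that lacked CYP2F2 and had no transgene did not show this fall. The 5 genes were chosen for that pattern from these same arrays. The difference between styrene and air in wild-type and in these CYP2F2-null mice therefore describes how the genes were picked. It is given without a test. Values that did not enter the choice are those of the outbred CD-1 strain, those of a transgenic line, and those of wild-type styrene mice at 26 weeks, which had no air group here. All 5 genes, of 17097 with an annotated probe set, passed the filter on dim probe sets, as did 15695 genes in all. Each was measured by 1 probe set, so no choice among probe sets arose for them.

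The platform was the Affymetrix HT MG-430 PM array, with an array for the whole lung of each adult male mouse, from mice that inhaled 120 ppm styrene (79 mice) or air (71 mice). The exposure time is 26, 52, 78 or 104 weeks in each sample's own label and is used so here, although the treatment protocol of the same samples names 1 or 4 weeks. The C57BL/6 mice were 31 wild types (WT), 38 mice that lacked CYP2F2 and had the transgene 2F1,SA13,2B6 (TG), and 39 that lacked CYP2F2 and had no transgene (KO). The other 42 were CD-1 mice, which like WT keep their own CYP2F2. Neither the promoter nor the cell type that drives the transgene is stated in the labels, and CD-1 differs from the other strains in its whole genetic background. Groups held 2 to 10 mice, with 2 in the WT air group at 78 weeks. Replicates are separate animals.

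Styrene is an aromatic solvent that cytochrome P450 enzymes oxidise to a reactive epoxide and to ring-oxidised products. In mouse lung much of this oxidation is carried out by CYP2F2 in club cells, the secretory cells of the small airways. Asgr1 encodes a subunit of the asialoglycoprotein receptor, the hepatocyte lectin that clears desialylated glycoproteins. Pon1 encodes paraoxonase 1, an esterase and lactonase best known from liver and high-density lipoprotein. Cldn8 encodes a claudin of tight junctions, Cckar the receptor for the gut hormone cholecystokinin, and Capn13 a member of the calpain proteases. The 5 genes lie on mouse chromosomes 11, 6, 16, 5 and 17 in that order.

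The RefSeq promoter table (build GRCm38.p6) held an entry for 3 of the 5 genes, Asgr1, Pon1 and Capn13. The 250 bases before the first listed start of Asgr1 and before the start of Pon1 are shown because these 2 genes had the largest mean differences in WT mice. Capitals mark matches to any of 8 motifs searched on both strands, namely the TATA box TATAAA, the CCAAT box, the aryl hydrocarbon receptor core GCGTG, the nuclear receptor motif AGGTCA, the NKX2-1 core CAAGTG, the FOXA core TGTTTAC, the AP-1 site TGACTCA and the antioxidant response core TGACNNNGC. No matches overlapped in the printed sequences, and a match on the reverse strand appears as its reverse complement.
Asgr1, chr11:70053874-70054123, plus strand: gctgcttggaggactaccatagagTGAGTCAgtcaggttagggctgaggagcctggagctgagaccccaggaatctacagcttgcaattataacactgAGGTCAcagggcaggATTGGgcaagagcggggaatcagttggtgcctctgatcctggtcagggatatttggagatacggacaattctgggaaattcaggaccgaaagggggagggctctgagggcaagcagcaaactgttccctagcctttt
Pon1, chr6:5193947-5194196, minus strand: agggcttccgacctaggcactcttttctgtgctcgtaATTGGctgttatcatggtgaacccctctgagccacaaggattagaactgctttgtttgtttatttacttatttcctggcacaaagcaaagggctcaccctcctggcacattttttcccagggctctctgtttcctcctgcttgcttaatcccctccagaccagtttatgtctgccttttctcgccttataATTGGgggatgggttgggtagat
CCAAT was found on the reverse strand in both, 137 bases before the Asgr1 start and 213 and 23 bases before the Pon1 start, counted from the far end of each match. This motif was in 33.8% of 32851 mouse promoter windows of 250 bases. The Asgr1 window also held the AP-1 site on the reverse strand 226 bases before the start, a motif found in 4.46% of windows. It held AGGTCA 152 bases before the start, found in 14% of windows. A second Asgr1 start lies 231 bases downstream in the table, and its window held AGGTCA alone. None of the 8 motifs was found in the Capn13 window. A match is a run of letters and not a site shown to be bound.

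The level of a gene is given as log2 intensity, so a difference of 1 is a doubling or halving, and levels of different probe sets are not compared with each other. Pon1 averaged 10.04 over the 150 arrays and Cckar 9.19, far above the level of 2.99 to 3.19 below which a probe set counted as dim on an array. Asgr1 averaged 5.04 and lay at or below that level on 4 arrays, and Cldn8 averaged 5.21 and did so on 2. Capn13 averaged 3.17 and lay at or below it on 56 of 150 arrays, and no fold is given for it. In these whole lungs, fewer cells that express a gene and less RNA per cell cannot be told apart.

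In WT mice the 5 genes stood apart by exposure in nearly every comparison, which is the property they were chosen for. At 52 and 78 weeks each of the 5 was lower in every styrene mouse than in any air mouse, and at 104 weeks this held for 4 of 5. Among all 15695 genes, 2.73% were lower without overlap at 52 weeks, 4.32% at 78 weeks and 15.2% at 104 weeks. Nothing is read from these shares, since the choice of genes used the same mice. The labels name no array plate, and plates were inferred from well positions that repeat, which left 4 arrays open between 2 plates. By this inference, dose and plate coincided in WT mice at 104 weeks, and at 78 weeks 4 of the 5 styrene arrays lay on plate 2 and both air arrays on plate 1.

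Asgr1 had the largest mean difference over the 3 times. At 52 weeks its level was 3.51, 3.53, 3.61, 3.85 and 4.24 in WT styrene mice, against 5.28, 5.50, 5.66, 6.08 and 6.35 in WT air mice. Every styrene mouse lay well below every air mouse. At 78 weeks it was 2.93, 3.14, 3.58, 3.61 and 4.00 in styrene mice, against 5.09 and 5.89 in air mice. At 104 weeks it was 3.40, 3.88, 4.13, 4.55 and 4.75 in styrene mice, against 5.42, 5.46, 5.66 and 5.87 in air mice. The means were 4.08-fold, 4.11-fold and 2.75-fold lower with styrene at these 3 times. At 26 weeks, with no air group to compare, WT styrene mice had 3.95 ± 0.32 (n = 5), in the range of the later styrene groups.

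Pon1 separated the WT groups as well. At 52 weeks it was 9.02, 9.41, 9.53, 9.81 and 9.85 in WT styrene mice, against 10.35, 10.73, 10.81, 10.85 and 10.87 in WT air mice. At 104 weeks 4 of the 5 styrene mice lay between 9.15 and 9.16 and the other at 8.59, against 10.53 to 10.81 in 4 air mice. The styrene mean was lower 2.3-fold at the first, 2.56-fold at the second and 3.11-fold at the last of the 3 times.

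Cldn8 averaged 4.52 ± 0.39 in WT styrene mice and 5.68 ± 0.26 in WT air mice at 52 weeks (SD, n = 5 each). At 78 weeks the styrene mice, between 4.36 and 5.05, came close to the lower air mouse at 5.13. At 104 weeks the styrene mice had 3.06, 3.33, 3.47, 4.06 and 4.47, against 4.97, 5.21, 5.48 and 5.63 in air mice, a 3.12-fold lower mean. Cckar differed less. It was 8.87 ± 0.21 in styrene mice and 9.69 ± 0.11 in air mice at 52 weeks (n = 5 each), or 1.76-fold lower, and 1.35-fold lower at both later times.

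Capn13 did not keep the pattern at 104 weeks. Its level was 2.92 ± 0.16 in WT styrene mice and 3.61 ± 0.33 in WT air mice at 52 weeks (n = 5 each). At 104 weeks it was 3.03 ± 0.34 in styrene mice (n = 5) and 2.81 ± 0.18 in air mice (n = 4), and the groups overlapped.

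**Figure D1:**
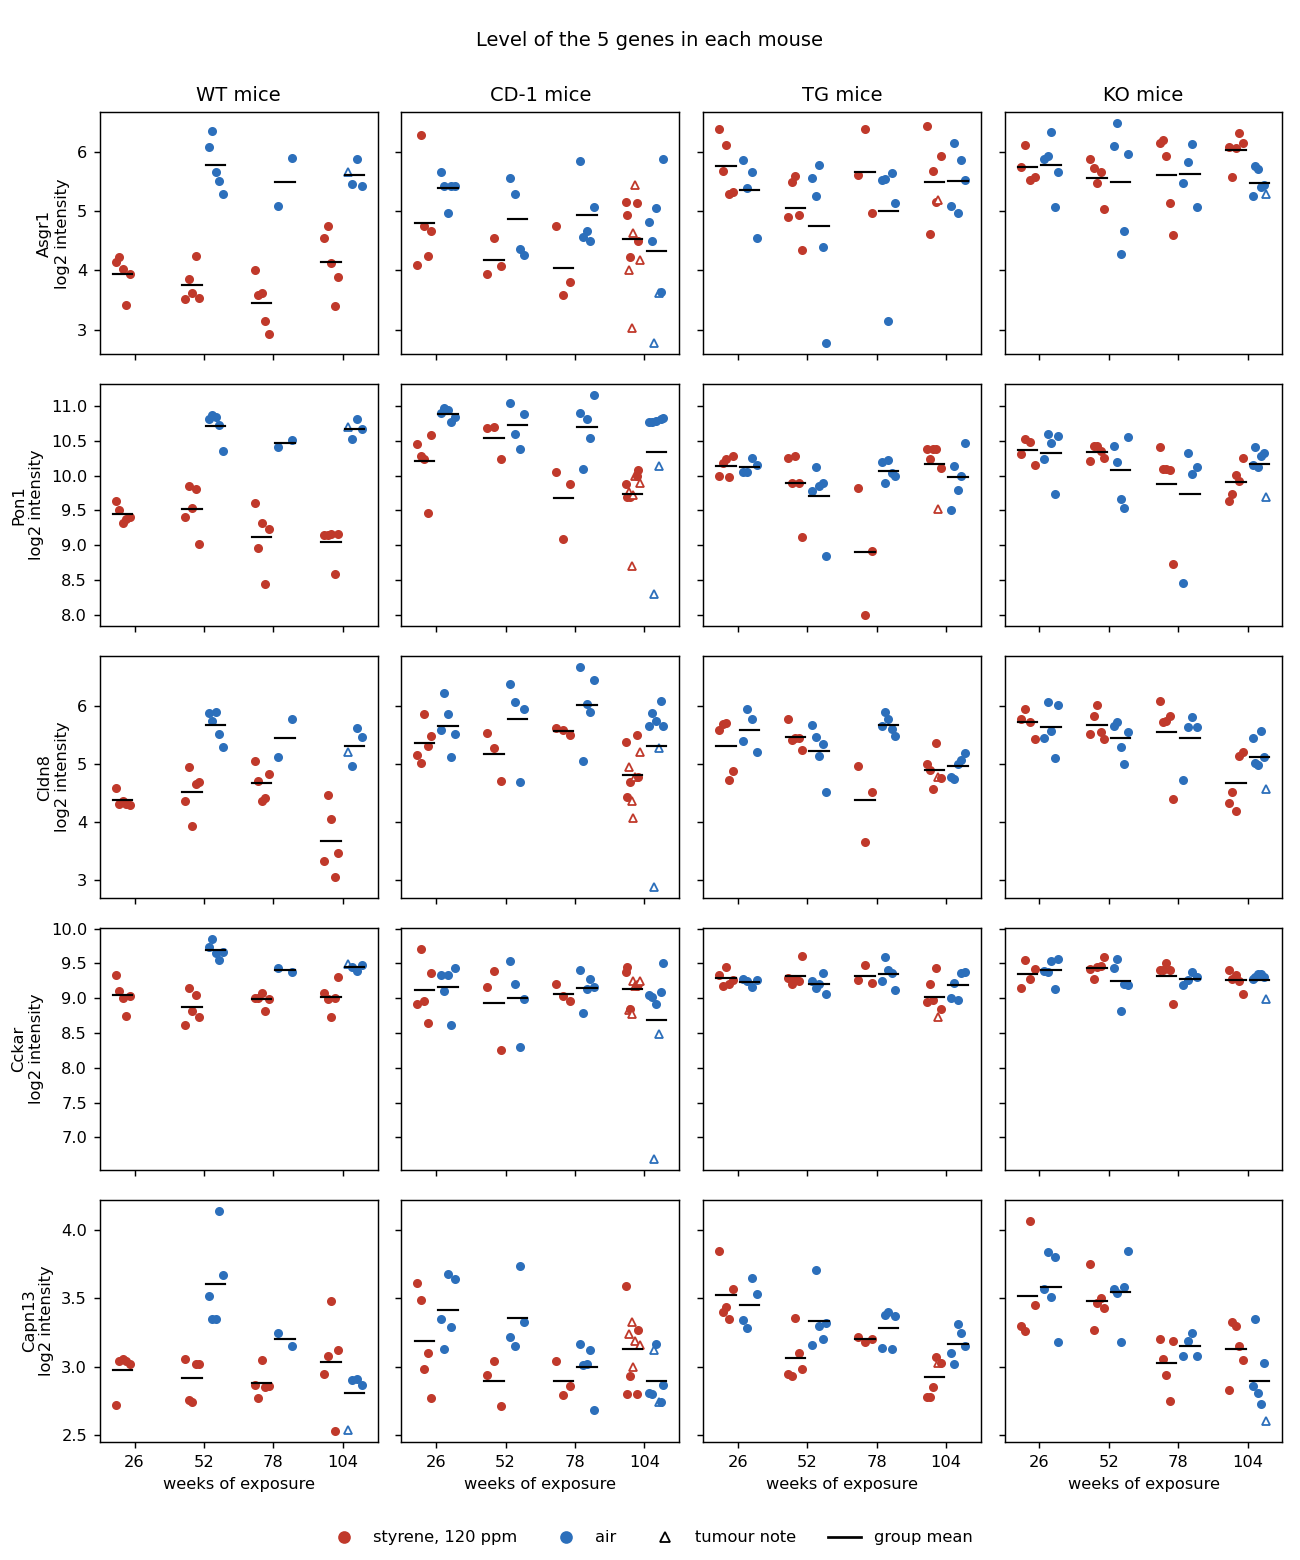
Level (log2 intensity) of the 5 genes in each mouse, by strain (columns), weeks of exposure (x axis) and exposure, with styrene in red left of air in blue; lines are group means, open triangles mice with a tumour note. WT styrene mice lie below WT air mice for all genes but Capn13 at 104 weeks, KO groups overlap throughout, and CD-1 air replicate 3 at 104 weeks is the lowest of its group for Pon1 (8.30), Cldn8 (2.88) and Cckar (6.69).

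KO mice showed no such gap, again as the choice of genes required. At none of the 4 times did any of the 5 genes separate the groups, while 1.09%, 0.911%, 0.51% and 1.22% of all genes were lower without overlap at 26, 52, 78 and 104 weeks. At 78 weeks all 5 KO styrene arrays lay on plate 2 and all 4 KO air arrays on plate 1. The difference of means, averaged over the 4 times, was 0.14 for Asgr1, 0.05 for Pon1, -0.01 for Cldn8, 0.05 for Cckar and 0.00 for Capn13. The groups came furthest apart at 104 weeks, where Asgr1 was 6.04 ± 0.28 in KO styrene mice (n = 5) and 5.47 ± 0.21 in KO air mice (n = 6), opposite in sign to the WT difference. Cldn8 was 4.68 ± 0.47 in KO styrene mice and 5.12 ± 0.36 in KO air mice at that time.

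The genotypes also differed in air. Pon1 was 10.07 ± 0.46 in KO air mice and 10.72 ± 0.22 in WT air mice at 52 weeks (n = 5 each). At 78 weeks it was lower in all 4 KO air mice, between 8.46 and 10.32, than in the 2 WT air mice at 10.42 and 10.52. It was 10.17 ± 0.26 in KO air (n = 6) and 10.68 ± 0.12 in WT air mice (n = 4) at 104 weeks, without overlap. Pon1 and Cckar were thus lower without overlap at 78 and 104 weeks, 2 of 5 genes each time, against 9.1% and 0.962% of all genes. The Cckar difference, KO air minus WT air, was -0.45, -0.13 and -0.19 at the 3 times, and that of Asgr1 was -0.28, 0.13 and -0.13. Against KO styrene mice, WT styrene mice were lower without overlap in Asgr1 at all 4 times, with differences of -1.79, -1.80, -2.15 and -1.89. They were apart in 4, 5, 1 and 2 of the 5 genes at these times, against 7.26%, 2.64%, 0.771% and 0.529% of all genes lower without overlap. The choice of genes used these WT and KO mice at all times but WT at 26 weeks, so nothing is read from these counts or from those in air.

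The targeted gene checks the genotype labels. Cyp2f2 had group means between 12.05 and 12.40 in KO and TG mice and between 13.05 and 13.50 in WT and CD-1 mice. The labels do not say where its probe set lies relative to the deletion. Of 13 club cell markers, such as Scgb1a1 and Cyp2f2, 12, 10 and 8 were lower with styrene at 52, 78 and 104 weeks, with medians of -0.20, -0.13 and -0.03. Of 12 hepatocyte markers 10, 6 and 3 were lower, with medians of -0.19, -0.03 and 0.18, and Alb, the leading liver transcript, averaged 3.54, near the dim level. Of 9 heart muscle markers 1, 0 and 6 were lower in WT styrene mice, with medians of 0.82, 0.48 and -0.25. Their part in the result was not tested.

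WT styrene mice at 26 weeks give values that did not enter the choice. Asgr1 was 3.41, 3.93, 4.03, 4.14 and 4.22 in them, against 5.28, 5.32, 5.68, 6.12 and 6.38 in TG styrene mice of the same week. The groups did not overlap, and the mean was 3.51-fold lower in WT (difference -1.81, SE 0.394, adjusted p = 0.00736, limma). Capn13 was 2.98 ± 0.15 in WT styrene and 3.52 ± 0.20 in TG styrene mice (n = 5 each), with a difference of -0.55 (SE 0.136, adjusted p = 0.0392). All 5 of these WT arrays were at or below the dim level for Capn13, so the size of this difference is uncertain. These 2 of the 5 genes were called, both lower in WT, where 0.248% of all genes were called, 0.0765% lower and 0.172% higher.

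Pon1 and Cldn8 also separated these groups without being called. Pon1 was 9.32 to 9.64 in WT styrene and 9.98 to 10.28 in TG styrene mice, with a difference of -0.69 (95% interval -1.21 to -0.16, adjusted p = 0.725, limma). Cldn8 was 4.30 to 4.59 in WT styrene and 4.73 to 5.71 in TG styrene mice, with a difference of -0.94 (95% interval -1.51 to -0.38, adjusted p = 0.249). In all, 4 of 5 genes were lower in every WT mouse than in any TG mouse, against 0.688% of all genes. Cckar overlapped, at 9.04 ± 0.21 in WT and 9.29 ± 0.11 in TG styrene mice.

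This comparison sets styrene mice of 2 genotypes side by side, so genotype and response to styrene cannot be told apart in it. In air at 52 weeks WT had the higher mean of Asgr1, at 5.77 ± 0.43 in WT and 4.75 ± 1.23 in TG mice, and of Pon1, at 10.72 ± 0.22 in WT and 9.70 ± 0.49 in TG mice (n = 5 each). The Asgr1 call held when each of the 10 arrays was left out in turn, with adjusted p between 0.00887 and 0.0472. The Capn13 call was lost on leaving out any of 9 of these arrays, with adjusted p up to 0.256.

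CD-1 mice, which have CYP2F2, gave the second set of values that had no part in the choice. Up to 78 weeks all 5 genes had lower means in styrene than in air mice at each time. Pon1 was called over the mean of these 3 times, where it was 1.56-fold lower with styrene (difference -0.64, SE 0.172, adjusted p = 0.0448, limma). This was 1 of 5 members called, where 0.835% of all genes were called and 0.153% were called lower. The other 4 were not, and their fitted differences were -0.71 for Asgr1 (95% interval -1.22 to -0.20, adjusted p = 0.215), -0.46 for Cldn8 (-0.83 to -0.10, 0.283), -0.26 for Capn13 (-0.43 to -0.08, 0.173) and -0.07 for Cckar (-0.31 to 0.18, 0.883). Over all genes the median difference was 0.01. Of the 13 club cell markers 5, 6 and 6 had lower means in CD-1 styrene mice at the 3 times, and of the 9 heart muscle markers 8, 2 and 8. Of the club cell markers 1 was called in the same fit as Pon1, the secretoglobin Scgb3a1, which fell by 1.44 (SE 0.376, adjusted p = 0.0351, limma). The goblet cell marker Tff2, named here after its value was seen, had -1.40 (adjusted p = 0.0553). None of the 8 goblet cell markers was called, and their median was -0.06. The part of these markers in the result was not tested.

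The Pon1 values behind this were 9.46, 10.24, 10.29, 10.46 and 10.59 in CD-1 styrene mice at 26 weeks, against 10.77, 10.84, 10.91, 10.95 and 10.97 in CD-1 air mice. No styrene mouse reached the air range. At 52 weeks it was 10.24, 10.68 and 10.70 in styrene mice, against 10.38, 10.60, 10.89 and 11.04 in air mice, and the groups overlapped. At 78 weeks it was 9.09, 9.88 and 10.05 in styrene mice, all below the 10.09, 10.55, 10.81, 10.91 and 11.16 of air mice. Pon1 was 1 of 24 genes called lower over these weeks, and the call sat close to the threshold. It was lost when any of 15 of the 25 CD-1 arrays was left out, with differences between -0.70 and -0.54 and adjusted p between 0.0203 and 0.167. The highest p came without styrene replicate 2 at 78 weeks.

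**Figure D2:**
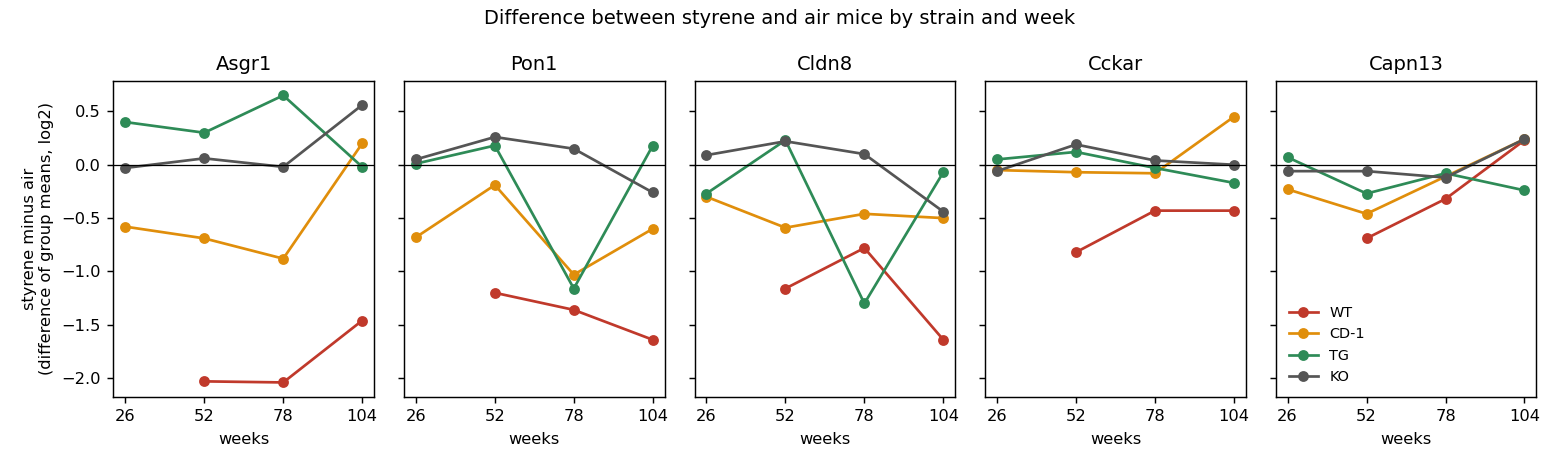
Styrene minus air difference of group means (log2) for each gene at 26, 52, 78 and 104 weeks in WT, CD-1, TG and KO mice; WT has no point at 26 weeks. WT lines lie lowest for Asgr1 and Cckar at every week shown, CD-1 lines lie between WT and 0 for Asgr1 up to 78 weeks, and the TG line is low at 78 weeks for Pon1 (-1.16) and Cldn8 (-1.30).

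Asgr1 in CD-1 mice had a wider spread. At 26 weeks it was 4.09, 4.24, 4.67, 4.74 and 6.28 in styrene mice, against 4.97, 5.42, 5.42, 5.43 and 5.66 in air mice. Of the 5 styrene mice 4 lay below every air mouse and 1 above them all. The mouse above them, styrene replicate 2, had the only plate 2 array of this comparison, by the inference from wells. At 78 weeks it was 3.59, 3.81 and 4.74 in styrene mice, against 4.49, 4.56, 4.67, 5.07 and 5.84 in air mice. In each of these weeks 1 of the 5 genes was lower without overlap, Pon1 at 26 and 78 weeks and Capn13 at 52, against 0.867% of all genes at 26 weeks, 2.95% at 52 and 2.32% at 78. The test of whether the CD-1 difference varied among 26, 52 and 78 weeks called none of the 5 genes (limma F-test, adjusted p between 0.977 and 0.999) and 0.0319% of all genes. At no single one of these times was any of the 5 called. Of all genes 0.65% were called at 26 weeks (0.312% lower, 0.338% higher), 0.0701% at 52 (0.0191% lower, 0.051% higher) and 0.121% at 78 (0.0382% lower, 0.0828% higher).

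At 104 weeks CD-1 air arrays lay on one array plate and styrene arrays on another, by the same inference, so dose and plate cannot be told apart, and 63.6% of all genes were called, 20.7% lower and 42.8% higher. Of the 5 genes Pon1 and Cldn8 fell and Cckar and Capn13 rose, while Asgr1 differed by 0.20 (SE 0.307, adjusted p = 0.575). Pon1 was 8.70 to 10.08 with a median of 9.82 in 10 styrene mice, against 8.30, 10.14, 10.77, 10.78, 10.79, 10.81 and 10.83 in 7 air mice (difference -0.60, SE 0.207, adjusted p = 0.00832, limma). Cldn8 averaged 4.82 ± 0.46 in styrene and 5.32 ± 1.10 in air mice (difference -0.50, SE 0.222, adjusted p = 0.0437). Cckar averaged 9.13 ± 0.23 in styrene and 8.68 ± 0.93 in air mice (0.45, SE 0.149, adjusted p = 0.00618). Capn13 averaged 3.13 ± 0.25 in styrene and 2.89 ± 0.18 in air mice (0.24, SE 0.106, adjusted p = 0.0406). Air replicate 3, a mouse with a tumour note in its labels, was the lowest air mouse for Pon1, Cldn8 and Cckar, and the Cckar call was lost without it (0.12, adjusted p = 0.393). Without it the difference was -0.94 for Pon1, -0.90 for Cldn8 and -0.06 for Asgr1. The Cldn8 and Capn13 calls were lost on leaving out any of 11 and any of 10 of the 17 arrays, with adjusted p up to 0.158 and 0.114.

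Without mice that carry a tumour note, Cckar was not called at 104 weeks. It was 9.21 ± 0.23 in styrene and 9.12 ± 0.23 in air mice (n = 5 each), a difference of 0.10 (adjusted p = 0.595, limma). Pon1 was 9.70, 9.70, 9.88, 10.00 and 10.08 in styrene mice, against 10.77, 10.78, 10.79, 10.81 and 10.83 in air mice, with no overlap and a 1.9-fold lower mean (difference -0.92, SE 0.225, adjusted p = 0.000496). Cldn8 was 4.96 ± 0.46 in styrene and 5.81 ± 0.18 in air mice (difference -0.85, SE 0.241, adjusted p = 0.0025). Asgr1 was 4.79 ± 0.42 in styrene and 4.77 ± 0.82 in air mice, a difference of 0.02. Of all genes 48.6% were called in this fit, and 17.2% lower. With all mice kept, 0 of 13 club cell markers had a lower mean in styrene mice at this time, with a median of 0.49.

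Over all 4 times together, Pon1 fell in CD-1 mice by 0.63 (SE 0.139, adjusted p = 0.000321) and Cldn8 by 0.47 (SE 0.15, adjusted p = 0.0101, limma). These were 2 of 5 members, where 32.4% of all genes were called, 13.4% lower and 19% higher. With CD-1 arrays fitted apart from C57BL/6 arrays the Cldn8 call was lost (-0.47, adjusted p = 0.0718). Asgr1 differed by -0.48 (SE 0.207, adjusted p = 0.0616), Capn13 by -0.13 (adjusted p = 0.141) and Cckar by 0.06 (adjusted p = 0.675). Asgr1 passed without the tumour-noted mice (-0.53, adjusted p = 0.0428, limma), where 28.7% of all genes were called and 12.6% were called lower. It also passed on leaving out any of 8 of the 42 arrays, 3 of them CD-1 air mice at 104 weeks. All these means include 104 weeks, where dose and plate coincided. With all mice kept, the median of the 5 was -0.47 and that of all genes 0.05.

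TG mice lack CYP2F2 and carry the transgene. Over the 4 times none of the 5 genes was called, and neither was any other of the 15695 genes by limma, of which 1768 had an unadjusted p under the same threshold. The fitted differences were 0.29 for Asgr1 (95% interval -0.17 to 0.74), -0.12 for Pon1 (-0.42 to 0.19), -0.16 for Cldn8 (-0.49 to 0.17), 0.01 for Cckar (-0.21 to 0.23) and -0.21 for Capn13 (-0.36 to -0.05). No single time gave a call among the 5, where none of all genes was called at 26 and 104 weeks, 0.0127% at 52 (0.00637% in each direction) and 0.191% at 78 (0.0765% lower, 0.115% higher).

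At 78 weeks Pon1 was 7.99, 8.91 and 9.82 in TG styrene mice, against 9.89, 9.99, 10.04, 10.19 and 10.23 in TG air mice. Cldn8 was 3.66, 4.53 and 4.98 in TG styrene mice, against 5.49, 5.61, 5.66, 5.78 and 5.90 in TG air mice. These 2 of 5 genes were lower without overlap, as were 13.7% of all genes. All 3 styrene arrays were placed on plate 2 and all 5 air arrays on plate 1. A term for plate 2 could be estimated only from groups split over plates 1 and 2, none of them TG. These were WT styrene mice at 78 weeks, CD-1 styrene mice at 26 weeks and CD-1 air mice at 52 weeks. Of these, the WT mice entered the choice of genes. With the plate as a term the differences were -0.84 for Pon1 (SE 0.41, adjusted p = 0.228, limma) and -0.53 for Cldn8 (SE 0.441, adjusted p = 0.471). Without that term they were -1.16 and -1.30 and both passed (adjusted p = 0.0012 and 0.000983, limma). In that fit 7341 of the 15695 genes were called, so nothing is read from these 2 calls. Asgr1 was 4.96, 5.60 and 6.39 in styrene mice, against 3.15, 5.13, 5.52, 5.54 and 5.64 in air mice, which overlapped.

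The styrene difference of CD-1 mice minus that of TG mice was negative for Asgr1, Pon1 and Cldn8 without passing the threshold. Over the 4 times it was -0.77 for Asgr1 (95% interval -1.39 to -0.15, adjusted p = 0.139, limma), -0.51 for Pon1 (-0.93 to -0.10, 0.144) and -0.31 for Cldn8 (-0.76 to 0.13, 0.461). It was 0.05 for Cckar and 0.07 for Capn13. None of the 5 was called, while 3.27% of all genes were, 1.27% lower and 2% higher. Without tumour-noted mice Pon1 passed at -0.63 (SE 0.181, adjusted p = 0.0358, limma), where 3.68% of all genes were called and 1.54% were called lower. Pon1 also passed on leaving out CD-1 air replicate 3 at 104 weeks or TG styrene replicate 2 at 78 weeks. Over 26, 52 and 78 weeks alone the difference was -1.10 for Asgr1 (95% interval -1.86 to -0.35, adjusted p = 0.421) and -0.42 for Pon1 (-0.93 to 0.09, adjusted p = 0.813), where 0.0956% of all genes were called and none lower. Dose and plate coincided in TG mice at 78 weeks, so this mean too depends on the plate term.

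**Figure D3:**
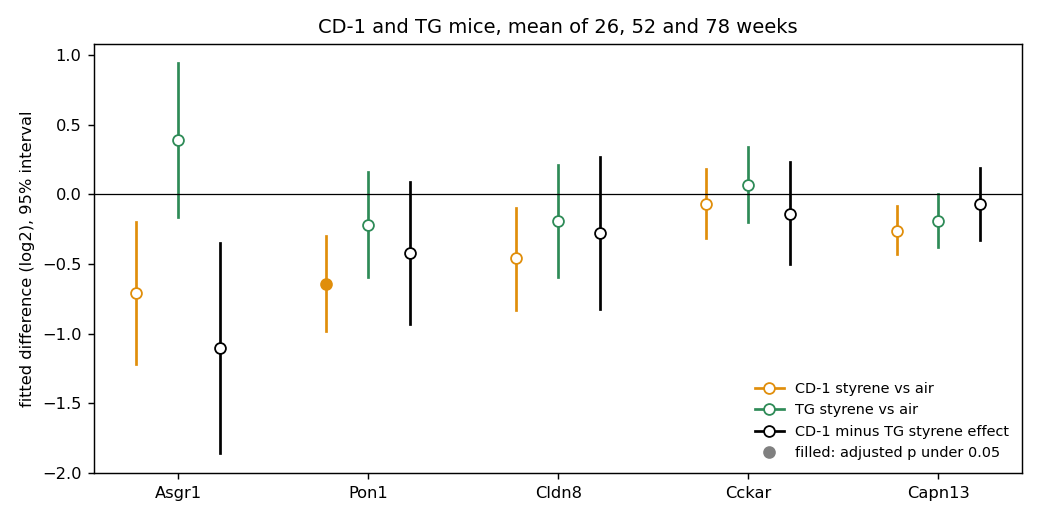
Fitted differences (log2, points) with 95% intervals (bars) for the 5 genes over 26, 52 and 78 weeks: styrene against air in CD-1 mice, the same in TG mice, and CD-1 minus TG. Pon1 in CD-1 mice (-0.64) is the only filled point, an adjusted p under 0.05, and the widest bars are those of Asgr1, whose CD-1 minus TG interval runs from -1.86 to -0.35 without passing the threshold (limma, adjusted p = 0.421).

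Of the 5 genes 1 was called with age in air. In CD-1 air mice only Capn13 was called, lower at 78 than at 26 weeks, at 3.00 ± 0.19 against 3.42 ± 0.24 (n = 5 each, difference -0.42, SE 0.136, adjusted p = 0.0166, limma). There 25.3% of all genes were called, 14% lower and 11.3% higher. At 78 weeks 3 of the 5 Capn13 values were at or below the dim level. The Capn13 call was lost on leaving out any of 3 of the 10 mice, with adjusted p up to 0.0873. Asgr1 differed by -0.46, Pon1 by -0.18, Cldn8 by 0.36 and Cckar by -0.02 in the same comparison. At 52 against 26 weeks none was called in CD-1 air mice, against 1.26% of all genes (0.911% lower, 0.35% higher). In TG air mice none of the 5 was called at 52 or 78 against 26 weeks, where 0.0319% (0.00637% lower, 0.0255% higher) and 18.3% (9.88% lower, 8.45% higher) of all genes were. Values of air mice at 104 weeks came from other plates and are not set against earlier ones.

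A tumour note stood in the labels of 7 CD-1 mice at 104 weeks, 5 styrene and 2 air mice. With exposure in the model, the difference between noted and other mice was -0.91 for Asgr1, -0.74 for Pon1, -0.80 for Cldn8, -0.66 for Cckar and 0.09 for Capn13. None passed (adjusted p = 0.471 to 0.827, limma), and no gene of the 15695 did, with 1451 at an unadjusted p under the threshold. The 2 noted air mice had 8.30 and 10.14 of Pon1 and 2.88 and 5.29 of Cldn8, each below all 5 other air mice. Without air replicate 3 the difference between noted and other mice was -0.69 for Asgr1, -0.36 for Pon1, -0.34 for Cldn8 and -0.28 for Cckar.

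For the relatives of these genes the gene lists were chosen with earlier results known. Pon2 and Pon3, the other paraoxonases, differed by -0.10 and -0.06 between styrene and air in WT mice on average, beside -1.40 for Pon1. In CD-1 mice over 26, 52 and 78 weeks Pon1 was the only one of 13 paraoxonase and lipoprotein genes called, and Pon2 and Pon3 had 0.07 (adjusted p = 0.749) and 0.15 (adjusted p = 0.379). Over all 4 times Pon3 rose by 0.19 in CD-1 mice (SE 0.0562, adjusted p = 0.00613, limma), where 19% of all genes rose. Its CD-1 minus TG difference was 0.42 (SE 0.0845, adjusted p = 0.00109), where 2% of all genes were called higher. Both means include 104 weeks, where dose and plate coincided in CD-1 mice.

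Asgr2, which encodes the second subunit of the asialoglycoprotein receptor, averaged 3.24, near the dim level, and differed by 0.07 in WT mice. The related lectins Clec10a, Mgl2 and Clec4f had differences of 0.21, 0.41 and 0.07 there, and none of the 5 lectin genes was called in CD-1 or TG mice. Among 24 tested claudin and tight junction genes the WT median was -0.01, beside -1.19 for Cldn8. In CD-1 mice over all 4 times 2 of these 24 fell, Cldn8 and Tjp1, and 9 rose, among them Cldn4 by 0.64 (adjusted p = 3.11e-05) and Cldn10, a club cell claudin, by 0.54 (adjusted p = 0.000254). Of all genes 13.4% fell and 19% rose over these 4 times, which include 104 weeks, where dose and plate coincided. Over 26, 52 and 78 weeks none of the 24 was called.

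Of the cholecystokinin and gastrin genes, Cckbr, the other receptor, averaged 3.37 and Gast 2.92, both near the dim level, and the hormone gene Cck did not pass the filter. Gnaq and Plcb1, of the signalling chain below such receptors, fell in CD-1 mice over all 4 times by 0.48 and 0.51 (adjusted p = 3.92e-06 and 0.0186), and Gna11 and Plcb3 rose by 0.16 and 0.22 (adjusted p = 0.026 and 0.00687). These were 2 lower and 2 higher of 7 tested genes. Of 14 tested calpain genes 2 fell and 2 rose, beside the same 13.4% and 19% of all genes. Capn7 fell by 0.66 (adjusted p = 7.18e-05) and Cast, the calpain inhibitor, by 0.62 (adjusted p = 0.00129), and Capn1 and Capn15 rose by 0.19 and 0.21 (adjusted p = 0.0206 and 0.0297). Over 26, 52 and 78 weeks no gene of the cholecystokinin or calpain list was called. In WT mice Cast differed by -0.54 and Capn7 by -0.48, beside -0.26 for Capn13. In TG mice none of these relatives was called over the 4 times.

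Of 12 tested genes of styrene metabolism, 9 rose and none fell in CD-1 mice over all 4 times, where 19% of all genes rose and 13.4% fell and 104 weeks, with dose and plate coinciding, is part of the mean. Nqo1, a quinone reductase induced by oxidant stress, rose by 1.06 (SE 0.113, adjusted p = 1.15e-12), and it was the only one called over 26, 52 and 78 weeks, at 0.83 (SE 0.14, adjusted p = 4.17e-05). Cyp2e1, the other main styrene oxidase, rose by 0.61 (adjusted p = 0.0379). The Cyp2f2 difference in CD-1 mice was 0.00 (SE 0.0597, adjusted p = 0.974, limma).

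Among mice of the same group, 4 of the 5 genes varied together. The Pearson correlation of deviations from the group mean over 150 arrays was 0.72 between Pon1 and Cldn8, 0.58 between Pon1 and Cckar, 0.57 between Cldn8 and Cckar, 0.49 between Asgr1 and Pon1 and 0.48 between Asgr1 and Cckar. Capn13 stood apart, with correlations between -0.11 and 0.00. Arrays share plates, and the values are given as a description. In the 52 CD-1 and TG arrays up to 78 weeks, which exclude the mice used for the choice, the value was 0.59 for Pon1 and Cldn8, 0.44 for Cldn8 and Cckar and 0.35 for Asgr1 and Cckar. It was 0.28 for Asgr1 with Pon1, 0.28 for Asgr1 with Cldn8 and 0.26 for Pon1 with Cckar.

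Over the 150 arrays the genes that varied most like each one differed. Aox3, an aldehyde oxidase, and Aldh1a7, an aldehyde dehydrogenase, came nearest to Pon1, at 0.81 and 0.76, followed by 1700094D03Rik at 0.73. Pfn2, Aldh1a7 and Cfap161 came nearest to Cldn8, at 0.74, 0.72 and 0.72. Slc16a11, Cldn10 and Gstm2 came nearest to Asgr1, at 0.65, 0.64 and 0.60, and Elapor1, Pxylp1 and Ldhb to Cckar, at 0.81, 0.80 and 0.78. For Capn13 the 3 nearest were Adam8, Sox21 and Adh7, at 0.52, 0.51 and 0.51.

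Marker genes varied with them as well. The deviations of Pon1 correlated at 0.65 with the club cell secretoglobin Scgb3a2, at 0.58 with Cyp2f2 and at 0.52 with Tnnt2, a heart muscle gene, and at -0.09 with Sftpc of alveolar type 2 cells and -0.16 with Alb. Those of Cldn8 correlated at 0.67 with Scgb3a2, at 0.45 with Tnnt2 and at -0.09 with Alb. Asgr1 correlated at 0.43 with Scgb3a2, at 0.16 with Tnnt2 and at 0.04 with Alb. Cckar correlated at 0.68 with Scgb3a2, at 0.72 with Cyp2f2 and at 0.51 with the ciliated cell gene Foxj1. The club cell marker Scgb1a1 gave weaker values, at 0.45 for Pon1, 0.42 for Cldn8, 0.30 for Asgr1 and 0.38 for Cckar. Capn13 correlated at 0.46 with Muc5b, a mucin of goblet cells, and at 0.29 with the ciliated cell gene Foxj1. In the arrays up to 78 weeks Pon1 correlated at 0.54 with Scgb3a2, 0.38 with Cyp2f2 and 0.46 with Tnnt2. There Cldn8 and Asgr1 correlated with Scgb3a2 at 0.52 and 0.39, and Capn13 with Muc5b and Foxj1 at 0.47 and 0.42. Cckar correlated in those arrays at 0.50 with Scgb3a2, 0.54 with Cyp2f2 and 0.23 with Foxj1. With Scgb1a1 the values were 0.37 for Pon1, 0.32 for Cldn8, 0.18 for Asgr1 and 0.17 for Cckar. The part of cell make-up or dissection in this was not tested.

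Over the 31 group means the order of likeness was another. Setd2 at 0.78, Mns1 at 0.78 and Cldn8 at 0.76 came nearest to Pon1, and Slc12a2 at 0.83, Ube2q2 at 0.82 and Aass at 0.81 to Cldn8. Cckar at 0.75, Lypd2 at 0.73 and Msc at 0.71 came nearest to Asgr1, Cfap20dc at 0.76, Asgr1 at 0.75 and Bbs2 at 0.73 to Cckar, and 5430421F17Rik at 0.75, Rxfp2 at 0.74 and 4930507D10Rik at 0.74 to Capn13. Part of the likeness between the 5 genes here follows from their choice, since WT styrene groups are low in each.

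**Figure D4:**
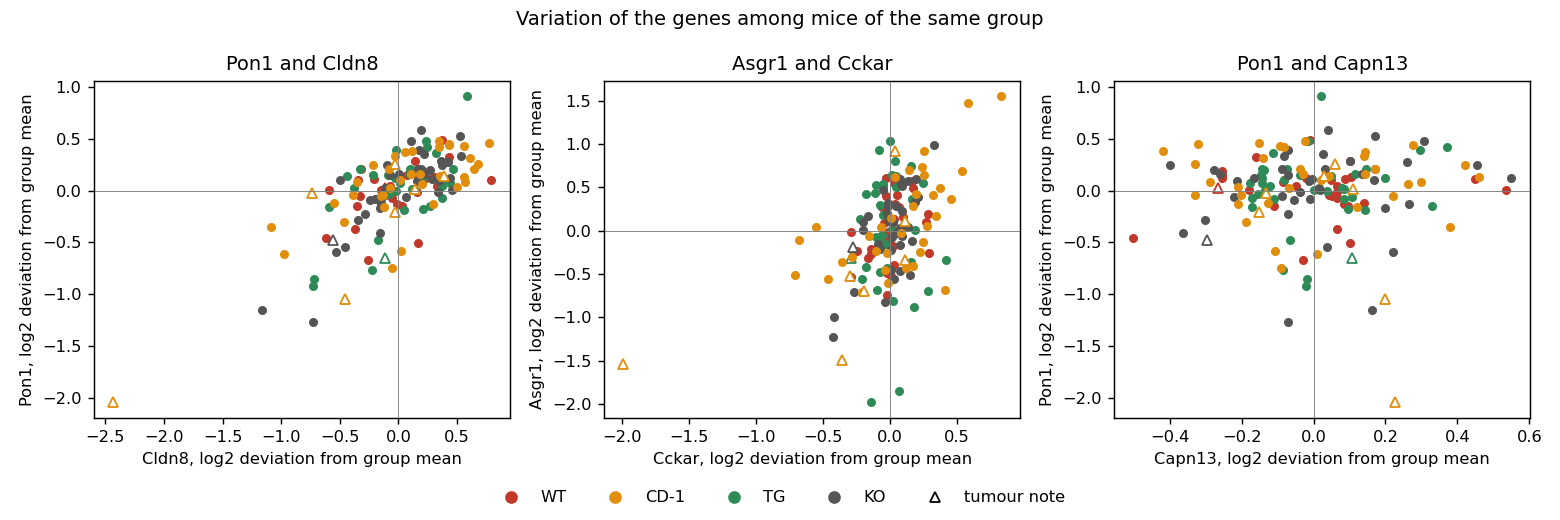
Deviation of each of the 150 mice from its group mean (log2) for Pon1 against Cldn8, Asgr1 against Cckar, and Pon1 against Capn13, coloured by strain, with open triangles for tumour notes. Pon1 and Cldn8 rise together (r = 0.72), Pon1 and Capn13 do not (r = -0.01), and the lowest point on the left is CD-1 air replicate 3 at 104 weeks.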

How the data were processed

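The authors deposited log2 intensities per probe set, summarised by RMA, with Partek also named, per the submitters' processing notes. No version or genome build is stated there. The number of arrays limits the precision. Groups, weeks and replicate numbers came from each sample's own labels; the treatment protocol's weeks differ from these and were not used. Plates were inferred from repeated well positions in the labels. The genes and lists were chosen with earlier results of these data known.

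Probe sets were named by the platform annotation, with symbols updated in the GRCm38.p6 gene table, and the one with the highest mean stood for a gene. Genes above the 30th percentile of an array in at least 3 arrays were tested. A model of 31 group means plus an effect of plate 2 was fitted to 150 arrays with limma 3.58.1 in R 4.3.3 (lmFit, eBayes). Adjusted p-values are by Benjamini and Hochberg over 15695 genes, and a gene was called under 0.05. The fits were tested on simulated data. Weeks to 78 are given apart, since air and styrene lay on different plates at 104 weeks, except 4 KO and TG styrene arrays whose plate is open. Named genes are the 5, list genes called or brightest in CD-1 and TG, and the 3 most alike to each. Alternatives were other filters, probe set means, separate fits, eBayes settings, plate, replicate number, tumour notes, a within-group axis and single arrays. Figures used matplotlib 3.10.9.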

Additional observations from a re-analysis of the deposited data

Results flagged for a closer look

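Within groups of 4 to 10 mice, 19 of 135 sets of a gene and a group held a mouse far from the others, where chance alone gives about 6.75, and in 7 of the 19 sets that mouse carries a tumour note. Some mice appear in several sets. In CD-1 mice at 104 weeks, air replicate 3 (tumour note) had 8.30 of Pon1, 2.88 of Cldn8 and 6.69 of Cckar, and styrene replicate 4 (tumour note) had 8.70 of Pon1. KO styrene replicate 5 at 78 weeks was low in Pon1 at 8.73, Cldn8 at 4.40 and Cckar at 8.91, and KO air replicate 1 at 78 weeks in Pon1 at 8.46 and Cldn8 at 4.73. Cckar was 8.99 in KO air replicate 6 at 104 weeks (tumour note). Among TG mice, Asgr1 was 3.15 in air replicate 3 at 78 weeks, Pon1 was 8.85 in air replicate 5 at 52 weeks and 9.52 in styrene replicate 5 at 104 weeks (tumour note), and Cckar was high, at 9.61, in styrene replicate 5 at 52 weeks. Among WT mice, Pon1 was 8.59 in styrene replicate 4 at 104 weeks and 10.35 in air replicate 5 at 52 weeks. WT styrene replicate 1 at 26 weeks was high in Cldn8, at 4.59, and low in Capn13, at 2.72, and WT air replicate 1 at 104 weeks (tumour note) had 2.54 of Capn13.

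In 8 cases every styrene mouse of one strain lay below the air mean and every styrene mouse of another above it, and the difference was not tested. How often other genes give such cases was not counted, so nothing is read from the number of cases. Small groups fall on one side of a mean more easily, and the CD-1 styrene group at 52 weeks held 3 mice. For WT against KO the effects were -1.46 and 0.56 for Asgr1 at 104 weeks (difference -2.02), -1.20 and 0.26 for Pon1 at 52 weeks (-1.46), and -0.82 and 0.19 for Cckar at 52 weeks (-1.01). These 3 are part of how the genes were chosen. The WT and KO effects in the cases below entered the choice too, so only TG against CD-1 lies outside it. For WT against TG at 52 weeks they were -1.16 and 0.23 for Cldn8 (-1.39) and -0.82 and 0.12 for Cckar (-0.94). For WT against CD-1 at 104 weeks they were -0.43 and 0.45 for Cckar (-0.88). For TG against CD-1 at 52 weeks they were 0.23 and -0.59 for Cldn8 (0.82), and for KO against CD-1 at 52 weeks 0.26 and -0.19 for Pon1 (0.45).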

How the results depend on the processing

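Counts here are of the 5 genes called by limma. For WT styrene against TG styrene mice at 26 weeks 2 were called, and 1 with a stricter filter or without plate 2 arrays. In CD-1 mice over 4 weeks 2 were called, and 1 with CD-1 fitted separately or over 26, 52 and 78 weeks. The separate fit called 3853 of all 15695 genes over 4 weeks. In CD-1 mice at 104 weeks 4 were called, against 1 fitted separately and 2 without tumour-noted mice. In CD-1 mice at 78 weeks 0 were called, and 1 with the within-group axis as covariate (Pon1, adjusted p = 0.013). With that axis 943 of all 15695 genes were called. In TG mice at 78 weeks 0 were called, against 2 with no plate term and 1 with the axis (Pon1, adjusted p = 0.0171). Of all 15695 genes 7341 were called with no plate term and 6212 with the axis, so nothing is read from these counts. For CD-1 minus TG 0 were called, and 1 without tumour-noted mice, where 3.68% of all genes were called. For CD-1 air at 78 against 26 weeks 1 was called, and 0 with the stricter filter. The stricter filter removed Capn13, so it was no longer tested there. The cause of the other changes was not tested.

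Leaving out single arrays (85 fits) gave 1 to 2 calls for WT against TG, 2 to 3 for CD-1 over 4 weeks, 2 to 4 at 104 weeks, and 0 to 1 for CD-1 at 78 weeks, TG at 78 weeks, CD-1 minus TG and CD-1 air at 78 against 26 weeks. In all genes, the CD-1 calls were 5084 over 4 weeks and 131 over 26, 52 and 78 weeks. With the replicate block 3 of the 5 genes were called in CD-1 mice over 4 weeks and 3 at 104 weeks, and genes called for CD-1 minus TG numbered 1081 against 514. Of 40 same-numbered pairs 12 correlated over 0.1 and 18 under 0. In TG mice at 26 weeks all 4 pairs correlated over 0.1, at 0.32 to 0.49, and there 0 genes were called with the block and without it. Leaving out plate 2 arrays was chosen after seeing the data, as were single-array fits over 26, 52 and 78 weeks, and it gave no value for TG at 78 weeks, which has no other styrene array. Dose and plate coincided at 104 weeks, and Capn13 lay near background.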
